A study of Mus musculus with 6 samples.

Results

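The gene module described here holds 32 mouse genes of the ATF4 response and of serine, proline and related amino acid synthesis. They were found by matching their gene symbols in the count table, which gave 32 members among 40481 genes. Their messenger RNA was measured in bone marrow-derived macrophages (BMDMs), which are bone marrow cells cultured into macrophages, by poly(A)-selected RNA sequencing. There were 3 wild-type and 3 *Scd2*-m/-m libraries, and no treatment is named for either genotype. *Scd2*-m/-m mice carry floxed alleles of *Scd2*, which encodes a stearoyl-CoA desaturase, an enzyme that makes monounsaturated fatty acids. A Cre recombinase driven by the lysozyme M gene deletes the alleles in myelomonocytic cells, so deletion depends on how far each cell has used that promoter. Marrow was cultured for 5 to 6 days in medium with 10% CMG-conditioned medium and both genotypes were then kept in 2%. The study used mice of both sexes aged 2 to 5 months, and no source used here gives the sex or age behind a library. The sources also do not say whether the wild-type mice carried floxed alleles or Cre, or whether each library came from its own mouse. The p-values therefore measure only the spread between these 6 libraries, which may be technical.

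ATF4 is a transcription factor of the integrated stress response. Kinases that sense amino acid shortage, endoplasmic reticulum stress and other stresses phosphorylate the initiation factor eIF2, which lowers general translation and raises translation of the *Atf4* message. ATF4 then pairs with C/EBP-family proteins and switches on genes for amino acid synthesis and uptake, transfer RNA charging and feedback control. Because ATF4 protein is set largely by translation, counts of *Atf4* messenger RNA are not a measure of the protein.

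ATF4 and its partners are known to bind a composite element with the core TGATGNAA, where N is any base. This core was searched on both strands of RefSeq promoter windows (build GRCm38.p6) that run from 250 bases before to 50 bases after each gene's start. Of the 32 members, 29 had a window, and 7 of these 29 members (24.1%) held the core. It was held by 1304 of all 32851 windows (3.97%), which belong to 1219 of 27025 genes (4.51%). Since members were listed as genes of the ATF4 response and related synthesis, these shares describe the list and were not tested against each other. The stretches around the matches are shown because they let the members' promoters be set beside the calls given later. Each is written 5′ to 3′ on the strand of its gene, and capitals mark the core or, where it lies on the other strand, its reverse complement.
Asns: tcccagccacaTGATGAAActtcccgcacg
Chac1: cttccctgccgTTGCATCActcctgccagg
Got1: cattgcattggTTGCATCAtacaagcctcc
Nupr1: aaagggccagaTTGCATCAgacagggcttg
Pycr1: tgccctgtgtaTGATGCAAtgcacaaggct
Trib3: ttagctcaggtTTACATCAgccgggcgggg
Vldlr: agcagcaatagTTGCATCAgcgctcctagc

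Positions of matches are counted from the RefSeq start that each window was built on. That start can differ from the GENCODE gene limits, from which the gene coordinates given later were taken. By the GENCODE limits, the stretches of *Asns*, *Nupr1* and *Vldlr* lie within the gene, and the match of *Trib3* lies before its start. The *Asns* stretch lies at chr6:7693214-7693243 on the minus strand, and its match begins at −23 relative to the RefSeq start. The *Got1* stretch lies at chr19:43524689-43524718 on the minus strand, with the match beginning at −102. *Nupr1* (chr7:126625562-126625591, minus strand) and *Pycr1* (chr11:120643833-120643862, minus strand) have theirs at −110 and −103. *Chac1* (chr2:119351038-119351067, plus strand) and *Vldlr* (chr19:27216809-27216838, plus strand) have theirs at −193 and −200. *Trib3* (chr2:152344028-152344057, minus strand) is the member whose match lies after its RefSeq start, beginning at 14. A match is a description of these letters and not a binding site, and no match says only that the letters are not in the window.

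The 6 libraries held between 46285176 and 57629638 counts on genes. Levels are given as CPM, which are counts divided by a library size that edgeR scaled with TMM factors, and 3 counts correspond to 0.0516 to 0.0650 CPM. The targeted gene *Scd2* stood at 66.9, 77.8 and 62.7 CPM in the wild-type libraries and at 59.5, 38.0 and 39.8 CPM in the *Scd2*-m/-m libraries, in the order of replicates 1 to 3 that is kept throughout. All *Scd2*-m/-m libraries were below all wild-type libraries, but the difference did not pass edgeR's quasi-likelihood test (log2 fold change −0.59, SE 0.19, adjusted p over all genes (FDR) = 0.1002). By quantitative PCR, the authors found *Scd2* transcript much lower in *Scd2*-m/-m than in wild-type BMDMs. Whether those cultures also gave these libraries is not stated. Counts per gene do not separate the floxed part of *Scd2* from the rest, so they cannot measure how far the alleles were deleted. Without *Scd2*-m/-m replicate 1, the library labelled as knockout with the highest *Scd2* level, the log2 fold change of *Scd2* was −0.83 (FDR = 8.87e-05). *Csf1r*, a defining macrophage marker that encodes the receptor for macrophage colony-stimulating factor, was high in both genotypes, at 6740 to 7310 CPM in wild-type and 5344 to 5482 CPM in *Scd2*-m/-m libraries. It was nevertheless called lower in *Scd2*-m/-m BMDMs by edgeR (log2 fold change −0.38, SE 0.07, FDR = 0.00158). Of 7 T and natural killer cell markers, *Ncr1* had 0 counts in all libraries, and of 6 mast cell and basophil markers, *Cma1* and *Mcpt4* did. The sums of these lists were 0.157 to 0.304 CPM in wild-type beside 0.215 to 0.597 CPM for the first and 0.130 to 0.256 beside 0.269 to 0.705 CPM for the second.

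Of the 32 members, 26 passed edgeR's filter on low counts and were tested, as part of a fit over 14778 genes. At an FDR below 0.05, 6 members were higher and 2 were lower in *Scd2*-m/-m BMDMs, and 18 passed in neither direction. These 8 calls are 30.8% of the members tested, beside 17.5% of all genes tested. Of all genes, 9.65% were called higher and 7.84% were called lower. The median log2 fold change of the 26 members was 0.10, beside 0.0039 over all genes tested, and 15 of the 26 were positive. The genotypes' libraries did not overlap for 14 of the 26 members, beside 34.9% of all genes, and 6 of these 14 were not called. Without *Scd2*-m/-m replicate 1, the same 8 members were called and *Shmt2* was also called lower (log2 fold change −0.28, FDR = 0.0198). The members thus did not move in a single direction, and the set is described here by the roles of its genes rather than as a response. In bulk RNA, fewer cells of a type and less RNA per cell cannot be told apart, and this holds for every value given.

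**Figure D1:**
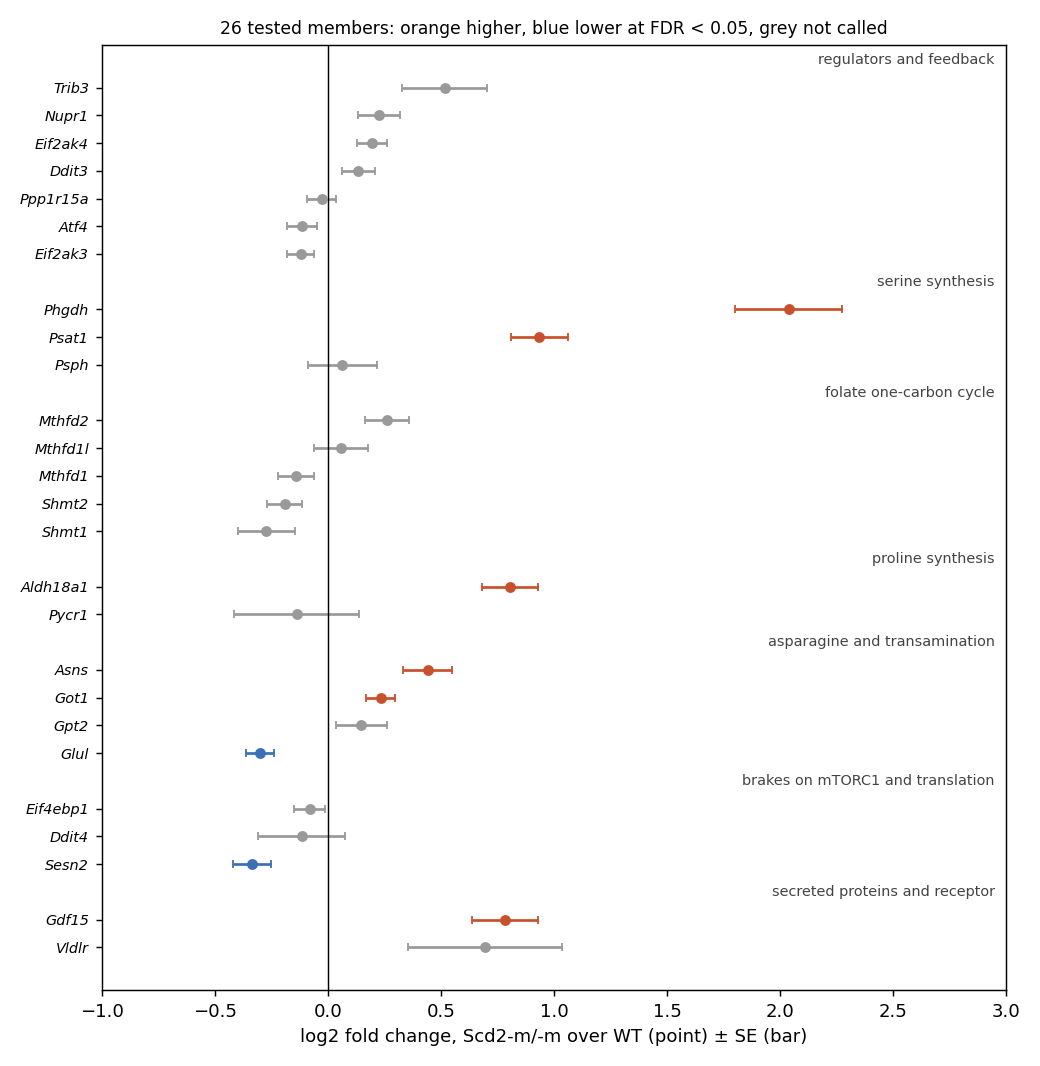
Log2 fold change of each of the 26 tested members, *Scd2*-m/-m over wild-type, from edgeR's fit of 3 libraries per genotype (points) with its standard error (bars), grouped by role. *Phgdh* stands farthest to the right at 2.04, 6 members are orange (higher), 2 are blue (lower) and 18 are grey (not called).

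Serine is made from the glycolytic intermediate 3-phosphoglycerate by 3 enzymes in a row, and the first and second of them were higher in *Scd2*-m/-m BMDMs. *Phgdh* (ENSMUSG00000053398, chr3:98313170-98339990, minus strand), which encodes the first enzyme, phosphoglycerate dehydrogenase, stood at 0.564, 0.390 and 0.492 CPM in wild-type and at 2.02, 2.03 and 1.93 CPM in *Scd2*-m/-m libraries. The genotypes were far apart and did not overlap. The mean rose from 0.482 ± 0.0873 to 1.99 ± 0.0578 CPM (SD, n = 3 each), to 414% of wild-type, with a log2 fold change of 2.04 (SE 0.24, FDR = 4.99e-05). These levels are low, and the wild-type values rest on 28, 18 and 25 counts beside 113, 102 and 112 in *Scd2*-m/-m libraries. The widest log2 fold change of any tested member was that of *Phgdh*.

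*Psat1* (ENSMUSG00000024640, chr19:15904678-15947337, minus strand) encodes the second enzyme, phosphoserine aminotransferase. It stood at 3.18, 3.60 and 3.97 CPM in wild-type and at 6.90, 7.18 and 6.50 CPM in *Scd2*-m/-m libraries, again without overlap. The mean rose from 3.59 ± 0.396 to 6.86 ± 0.341 CPM, to 191% of wild-type, with a log2 fold change of 0.93 (SE 0.13, FDR = 0.000188). *Psph*, which encodes the last enzyme, phosphoserine phosphatase, behaved differently. It stood at 5.16, 4.16 and 5.25 CPM in wild-type and at 5.50, 5.73 and 4.04 CPM in *Scd2*-m/-m libraries, so the genotypes overlapped, and its log2 fold change was 0.06 (SE 0.15, FDR = 0.824). An exon of *Cct6a* on the opposite strand covers 10.4% of the exonic bases of *Psph*, and the use of strand in counting is not given, so its value is uncertain. Neither *Phgdh* nor *Psat1* held the core TGATGNAA in its promoter window. *Psat1* lies on the same chromosome as *Scd2*, at −28.4 Mb from it, and the part of this position in its value was not tested.

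Proline is made from glutamate, and the enzyme of its first steps was higher while a later one was not called. *Aldh18a1* (ENSMUSG00000025007, chr19:40550257-40588463, minus strand) encodes pyrroline-5-carboxylate synthase. It stood at 5.60, 5.57 and 5.47 CPM in wild-type and at 11.1, 10.0 and 8.03 CPM in *Scd2*-m/-m libraries, which did not overlap and which varied more among themselves in *Scd2*-m/-m BMDMs. The mean rose from 5.55 ± 0.0690 to 9.71 ± 1.55 CPM, to 175% of wild-type, with a log2 fold change of 0.81 (SE 0.12, FDR = 0.000518). *Pycr1*, which encodes a pyrroline-5-carboxylate reductase that finishes proline, stood at 0.725, 0.694 and 0.826 CPM in wild-type and at 0.681, 0.657 and 0.705 CPM in *Scd2*-m/-m libraries. Its log2 fold change was −0.14 (SE 0.28, FDR = 0.790), and its genotypes overlapped. *Aldh18a1* lies 3.74 Mb from *Scd2* on the same chromosome. Within 5 Mb of *Scd2*, 27 of 105 tested genes (25.7%) were called, beside 17.5% of all genes tested. The part of this closeness in the result was not tested.

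Of the tested genes for asparagine, glutamine and transamination, 2 were higher, 1 was lower and 1 was not called. Of all genes tested, 9.65% were called higher and 7.84% were called lower. *Asns* (ENSMUSG00000029752, chr6:7675169-7693254, minus strand), which encodes asparagine synthetase, stood at 5.66, 5.20 and 5.19 CPM in wild-type and at 7.33, 7.18 and 7.29 CPM in *Scd2*-m/-m libraries. The genotypes did not overlap, and the mean rose from 5.35 ± 0.267 to 7.27 ± 0.0770 CPM (log2 fold change 0.44, SE 0.11, FDR = 0.0118). This call was lost without wild-type replicate 2 (FDR = 0.0593). *Asns* and *Got1* were the called members whose promoter windows held the core, 2 of the 8 called members that had a window, beside 4 of 17 tested members that were not called.

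*Got1* (ENSMUSG00000025190, chr19:43499752-43524605, minus strand) encodes the cytosolic aspartate aminotransferase. It stood at 57.2, 61.1 and 65.4 CPM in wild-type and at 69.7, 72.7 and 73.6 CPM in *Scd2*-m/-m libraries, without overlap. The mean rose from 61.2 ± 4.13 to 72.0 ± 2.03 CPM (log2 fold change 0.23, SE 0.06, FDR = 0.0229). The call did not hold without wild-type replicate 1 (FDR = 0.0875), wild-type replicate 2 (0.0933), *Scd2*-m/-m replicate 2 (0.103) or *Scd2*-m/-m replicate 3 (0.0546). *Got1* also lies near *Scd2*, at 0.794 Mb, so the share of 25.7% given for *Aldh18a1*, beside 17.5% of all genes tested, applies to it too. Counted without *Aldh18a1* and *Got1*, 4 called members were higher, a recount of the same fit that tests nothing. *Psat1* is among these 4 and lies on the same chromosome as *Scd2*.

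*Glul* (ENSMUSG00000026473, chr1:153899944-153909723, plus strand), which encodes glutamine synthetase, moved the other way. It stood at 442, 492 and 475 CPM in wild-type and at 369, 391 and 384 CPM in *Scd2*-m/-m libraries, without overlap. The mean fell from 470 ± 25.1 to 381 ± 10.9 CPM, to 81.2% of wild-type, with a log2 fold change of −0.30 (SE 0.06, FDR = 0.00413). *Gpt2*, which encodes the mitochondrial alanine aminotransferase, stood at 11.5, 11.6 and 12.8 CPM in wild-type and at 14.6, 14.3 and 10.9 CPM in *Scd2*-m/-m libraries. *Scd2*-m/-m replicate 3 was the lowest of all 6 libraries, the genotypes overlapped, and its log2 fold change was 0.15 (SE 0.11, FDR = 0.404).

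**Figure D2:**
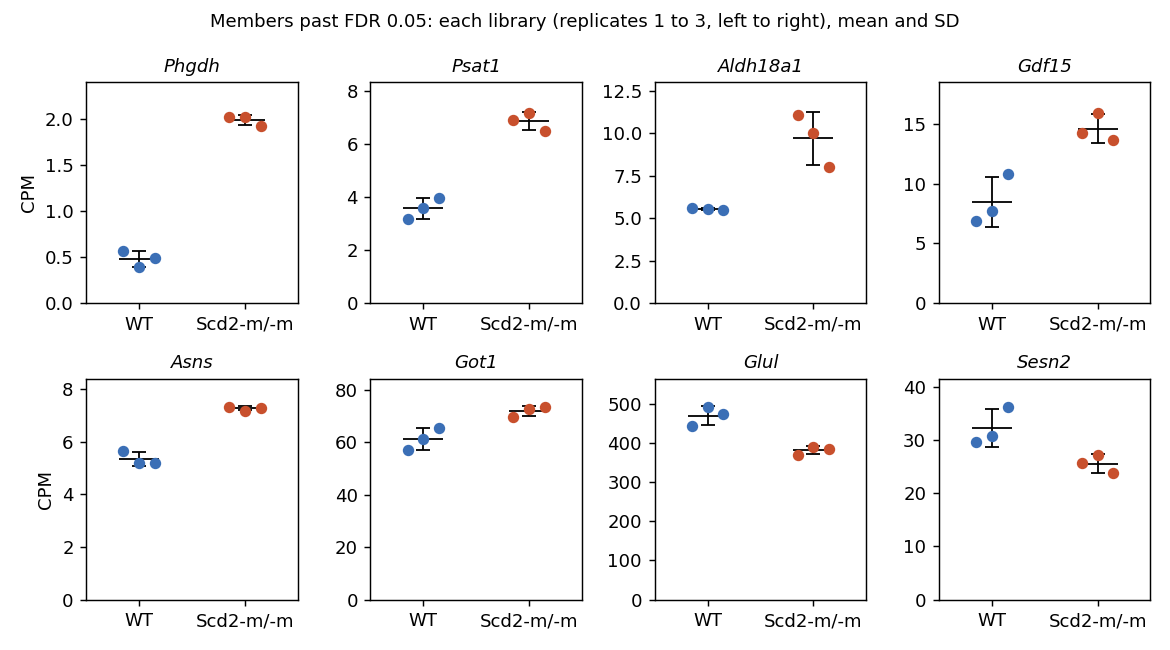
CPM in each library (points, replicates 1 to 3 from left to right) with the mean and SD (bars) of 3 wild-type (blue) and 3 *Scd2*-m/-m (orange) libraries, for the 8 members past an FDR of 0.05, each axis starting at 0. The genotypes do not overlap in any panel, and the gap is wide for *Phgdh* (0.482 to 1.99 CPM) and narrower for *Got1* (61.2 to 72.0 CPM).

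The 7 regulators and feedback genes of the pathway gave no call. By edgeR, 0 of 7 passed an FDR of 0.05, beside 17.5% of all genes tested, and 3 had an unadjusted p below 0.05. DESeq2 and limma-voom also called 0, while limma-voom with quality weights called 3 higher and 1 lower. The genotypes' libraries did not overlap for 4 of the 7, beside 34.9% of all genes, and no difference from these shares was tested. *Atf4* itself stood at 126, 125 and 115 CPM in wild-type and at 113, 105 and 120 CPM in *Scd2*-m/-m libraries, so the genotypes overlapped, and its log2 fold change was −0.11 (SE 0.07, FDR = 0.262). *Ddit3*, which encodes CHOP, a transcription factor that ATF4 induces, stood at 18.0, 16.9 and 18.2 CPM beside 19.6, 19.8 and 18.9 CPM (log2 fold change 0.14, SE 0.07, FDR = 0.235). *Trib3*, which encodes a pseudokinase that restrains ATF4, stood at 2.03, 2.41 and 1.50 CPM beside 2.94, 2.77 and 2.77 CPM (log2 fold change 0.52, SE 0.19, FDR = 0.0783). In both genes every *Scd2*-m/-m library was above every wild-type library, which the test across all genes did not call. The value of *Ddit3* is uncertain, since a second annotated entry on its strand shares 6.13% of its exonic bases and *Mars*, on the opposite strand, shares 3.97%. *Nupr1*, which encodes a small stress-induced chromatin protein, overlapped between the genotypes, with 22.7, 19.5 and 17.0 CPM beside 22.5, 22.8 and 23.8 CPM (log2 fold change 0.23, SE 0.09, FDR = 0.118). It was called without wild-type replicate 1 (0.0159).

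The module's kinases upstream of ATF4, *Eif2ak4* and *Eif2ak3*, had log2 fold changes of opposite sign, and neither passed. *Eif2ak4*, which encodes GCN2, the sensor of uncharged transfer RNA, stood at 24.5, 25.3 and 24.0 CPM in wild-type and at 27.5, 29.2 and 27.8 CPM in *Scd2*-m/-m libraries. Its genotypes did not overlap, its FDR of 0.0549 lay just outside the threshold (log2 fold change 0.19, SE 0.07), and 5 of 17 alternative settings called it. *Eif2ak3*, which encodes PERK, the sensor of stress in the endoplasmic reticulum, stood at 40.0, 40.6 and 39.5 CPM beside 36.9, 37.6 and 36.0 CPM (log2 fold change −0.12, SE 0.06, FDR = 0.201), and 8.05% of its exonic bases lie under an entry on the opposite strand. *Ppp1r15a* encodes GADD34, which directs a phosphatase to eIF2 and so ends the response. Its genotypes overlapped at 29.6 to 30.7 CPM and 28.9 to 30.6 CPM, with a log2 fold change of −0.03 (SE 0.06, FDR = 0.820).

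The folate one-carbon cycle takes carbon units from serine and passes them on for nucleotide synthesis and methylation. Of its 6 members, 5 were tested. By edgeR 0 were called and 3 had an unadjusted p below 0.05, DESeq2 and limma-voom called 0, and limma-voom with quality weights called 1 higher and 2 lower. *Mthfd2*, which encodes a mitochondrial dehydrogenase and cyclohydrolase of the cycle, stood at 7.51, 7.72 and 7.06 CPM in wild-type and at 8.83, 9.09 and 8.81 CPM in *Scd2*-m/-m libraries. The genotypes did not overlap, and its log2 fold change was 0.26 (SE 0.10, FDR = 0.0829). *Shmt1*, which encodes the cytosolic enzyme that splits serine into glycine and a carbon unit, also did not overlap but had every *Scd2*-m/-m library below, with 5.10, 6.05 and 6.43 CPM beside 4.95, 4.85 and 4.77 CPM (log2 fold change −0.27, SE 0.12, FDR = 0.160). *Shmt2*, its mitochondrial counterpart, overlapped between the genotypes (log2 fold change −0.19, SE 0.08, FDR = 0.110) and was called without *Scd2*-m/-m replicate 1 (FDR = 0.0198). *Mthfd1* and *Mthfd1l*, which encode cytosolic and mitochondrial enzymes of the cycle, gave log2 fold changes of −0.14 (SE 0.08, FDR = 0.260) and 0.06 (SE 0.12, FDR = 0.796), and both overlapped. Of the tested genes of serine synthesis 2 of 3 were called, and of those of the folate cycle 0 of 5, beside 17.5% of all genes tested. The difference between the 2 lists was not tested.

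Of the genes that restrain growth through mTORC1 or translation, 1 of 3 was lower, beside 7.84% of all genes tested. *Sesn2* (ENSMUSG00000028893, chr4:132492032-132510501, minus strand) encodes Sestrin2, a leucine sensor that holds back mTORC1. It stood at 29.6, 30.8 and 36.2 CPM in wild-type and at 25.7, 27.2 and 23.7 CPM in *Scd2*-m/-m libraries, without overlap. The mean fell from 32.2 ± 3.52 to 25.5 ± 1.76 CPM, to 79.3% of wild-type (log2 fold change −0.34, SE 0.08, FDR = 0.0136). This call was lost without wild-type replicate 3 (FDR = 0.0593) and without *Scd2*-m/-m replicate 3 (FDR = 0.0510). *Ddit4*, which encodes REDD1, another brake on mTORC1, had log2 fold change −0.12 (SE 0.19, FDR = 0.736). *Eif4ebp1*, which encodes a protein that blocks the cap-binding factor eIF4E, had log2 fold change −0.08 (SE 0.07, FDR = 0.481), and the genotypes overlapped for both genes.

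Among the secreted proteins and the receptor of the module, *Gdf15* was called. *Gdf15* (ENSMUSG00000038508, chr8:70629393-70632456, minus strand) encodes a secreted stress hormone of the TGF-beta superfamily that lowers food intake. It stood at 6.85, 7.70 and 10.8 CPM in wild-type and at 14.2, 15.9 and 13.6 CPM in *Scd2*-m/-m libraries. Wild-type replicate 3 was the highest of its group but still below every *Scd2*-m/-m library. The mean rose from 8.46 ± 2.10 to 14.6 ± 1.21 CPM, to 172% of wild-type, with a log2 fold change of 0.78 (SE 0.15, FDR = 0.00335). *Vldlr*, which encodes the very low density lipoprotein receptor, stood at 0.463, 0.954 and 1.06 CPM in wild-type and at 0.824, 1.81 and 1.39 CPM in *Scd2*-m/-m libraries. Its genotypes overlapped, and its log2 fold change of 0.69 (SE 0.34, FDR = 0.191) was not called despite its size. The core was present in the promoter window of *Vldlr* and absent from that of *Gdf15*. *Vldlr* lies on the same chromosome as *Scd2*, at −17.1 Mb from it.

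The other 6 members were too low to be tested. *Chac1*, which encodes an enzyme that degrades glutathione, had 8, 6 and 2 counts in wild-type and 12, 8 and 12 counts in *Scd2*-m/-m libraries. *Aldh1l2*, which encodes a mitochondrial folate enzyme, had 4, 6 and 4 counts beside 11, 26 and 2, with *Scd2*-m/-m libraries both the highest and the lowest, and 14.1% of its exonic bases lie under a gene on the opposite strand. The cysteine synthesis genes *Cbs* and *Cth* had 4, 5 and 2 beside 2, 1 and 0 counts and 2, 2 and 2 beside 2, 2 and 0 counts. *Bcat1*, which encodes the cytosolic branched-chain aminotransferase, had 6, 2 and 1 beside 0, 0 and 3 counts. *Stc2*, which encodes a secreted glycoprotein, had 2, 0 and 0 beside 0, 2 and 1 counts. Without a filter on low counts, edgeR called none of the 6, with FDR between 0.278 and 0.937.

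Per length of exon, the members spanned several orders of magnitude, and the called genes ran from *Glul*, the highest member, down to *Phgdh*. In CPM per kb of exon, *Glul* had the highest wild-type mean level (141), followed by *Atf4* (51.8), *Eif4ebp1* (35.7) and *Got1* (24.1). *Shmt2* (11.5), *Ddit3* (10.3) and *Ppp1r15a* (10.3) came next. The enzymes of serine synthesis were far lower, at 1.12 for *Psph*, 0.843 for *Psat1* and 0.194 for *Phgdh*. In *Scd2*-m/-m BMDMs, *Psat1* at 1.61 lay above *Psph* at 1.18, the reverse of their order in wild-type, and *Phgdh* at 0.802 was still the lowest of the pathway. *Aldh18a1* stood at 1.36 and, in *Scd2*-m/-m BMDMs, at 2.38, against 0.190 and 0.173 for *Pycr1*. The lowest level in wild-type, 0.0026 for *Stc2*, rested on 2 counts in 1 library.

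**Figure D3:**
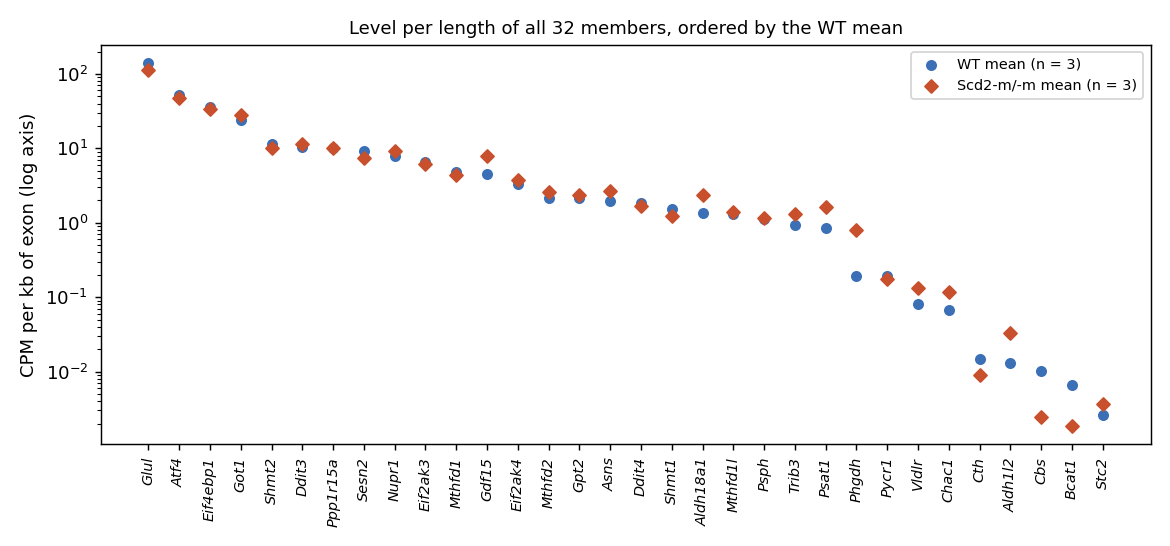
Mean level of all 32 members in CPM per kb of exon (log axis) in 3 wild-type (blue circles) and 3 *Scd2*-m/-m (orange diamonds) libraries, ordered by the wild-type mean. The members run from *Glul* at 141 to *Stc2* at 0.0026 in wild-type, and the symbols are farthest apart among tested genes for *Phgdh* (0.194 and 0.802).

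Lists of related genes outside the module were read against the same 9.65% of all genes called higher and 7.84% called lower by edgeR, and no difference from those shares was tested. Of 14 other kinases, eIF2 and eIF2B subunits and phosphatase parts, edgeR called 0 higher and 1 lower, as did DESeq2 and limma-voom, while limma-voom with quality weights called 1 higher and 1 lower. The gene edgeR called was *Gcn1l1*, which encodes the activator that GCN2 needs on stalled ribosomes (108 ± 0.0650 to 87.6 ± 7.48 CPM, log2 fold change −0.30, SE 0.07, FDR = 0.00722). Of 20 cytosolic aminoacyl-tRNA synthetases, which ATF4 is known to induce as a group, 1 was higher and 1 was lower. *Sars*, for serine, rose from 74.0 ± 4.07 to 87.8 ± 1.23 CPM (log2 fold change 0.25, SE 0.06, FDR = 0.0119), a call lost without wild-type replicate 2 (0.0943) or *Scd2*-m/-m replicate 2 (0.0654). *Mars*, for methionine, fell from 30.7 ± 1.16 to 26.2 ± 1.46 CPM (log2 fold change −0.23, SE 0.07, FDR = 0.0338), a call lost without wild-type replicate 2 (0.123) or 3 (0.105) or *Scd2*-m/-m replicate 2 (0.153) or 3 (0.0868). Without wild-type replicate 2 or *Scd2*-m/-m replicate 2, 0 synthetases were called. Of 9 tested amino acid transporters that ATF4 is known to induce, edgeR, DESeq2 and limma-voom each called 0 higher and 1 lower, and limma-voom with quality weights called 0 higher and 2 lower. The gene edgeR called was *Slc3a2*, which encodes the shared heavy chain of several transporters (263 ± 33.2 to 175 ± 7.23 CPM, log2 fold change −0.58, SE 0.08, FDR = 0.000219).

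The bZIP partners and relatives of ATF4 had more calls, 4 lower and 1 higher of 10 tested. *Cebpa* and *Cebpb*, which encode C/EBP proteins, fell from 164 ± 9.44 to 113 ± 7.49 CPM (log2 fold change −0.54, SE 0.07, FDR = 8.76e-05) and from 194 ± 16.0 to 143 ± 8.74 CPM (log2 fold change −0.43, SE 0.07, FDR = 0.000776). *Jdp2*, which encodes a repressor of AP-1, fell from 10.4 ± 0.555 to 7.26 ± 0.332 CPM (log2 fold change −0.52, SE 0.10, FDR = 0.00217). *Fos*, an immediate early gene, fell from 188 ± 40.4 to 113 ± 4.80 CPM (log2 fold change −0.73, SE 0.14, FDR = 0.0128), and its call was lost without *Scd2*-m/-m replicate 1 (0.0602) or 3 (0.103). The member of the list that was higher was *Atf5*, named after its value was seen (25.0 ± 0.930 to 30.6 ± 2.45 CPM, log2 fold change 0.29, SE 0.07, FDR = 0.0138). It was not called without wild-type replicate 2 (0.0822) or *Scd2*-m/-m replicate 2 (0.0744).

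In the pathways next to the members, calls went both ways. Of 19 tested genes of the wider glycine, folate and methionine cycles, 4 were higher and 2 were lower. *Folr2*, which encodes the folate receptor of macrophages, rose from 96.9 ± 1.11 to 174 ± 4.04 CPM (log2 fold change 0.84, SE 0.05, FDR = 3.12e-07). Among the higher genes, and named after their values were seen, were also *Tyms*, which encodes thymidylate synthase (2.39 ± 0.220 to 3.53 ± 0.404 CPM, log2 fold change 0.56, SE 0.16, FDR = 0.0273), and *Ggh*, which encodes a hydrolase of folate polyglutamates (55.3 ± 4.04 to 67.1 ± 7.56 CPM, log2 fold change 0.28, SE 0.08, FDR = 0.0328). *Tyms* was not called without wild-type replicate 1 (0.0663) or 3 (0.0672) or *Scd2*-m/-m replicate 1 (0.0776) or 2 (0.115), nor *Ggh* without wild-type replicate 2 (0.124) or 3 (0.108) or *Scd2*-m/-m replicate 2 (0.155) or 3 (0.133). *Slc19a1*, which encodes the reduced folate carrier, and *Fpgs*, which encodes the enzyme that traps folate in the cell, fell with the same log2 fold change of −0.40 (SE 0.10 each, FDR = 0.0100 and 0.0113). *Slc19a1* was not called without *Scd2*-m/-m replicate 2 (0.0585), nor *Fpgs* without wild-type replicate 2 (0.0665) or *Scd2*-m/-m replicate 2 (0.0508). Without *Scd2*-m/-m replicate 2 this list had 2 calls.

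Of 14 other proline, glutamate and branched-chain genes, 1 was higher and 1 was lower. *Prodh*, which encodes the enzyme that breaks proline down, fell from 5.00 ± 0.443 to 3.42 ± 0.288 CPM (log2 fold change −0.55, SE 0.14, FDR = 0.0121). *Got2*, the mitochondrial counterpart of *Got1*, was at the threshold (89.7 ± 6.57 to 103 ± 3.93 CPM, log2 fold change 0.20, SE 0.07, FDR = 0.0479). Its call was lost with RLE factors (0.0575), DESeq2 (0.0535) and limma-voom (0.0513), and without wild-type replicate 2 (0.223) or 3 (0.145) or *Scd2*-m/-m replicate 1 (0.10001) or 2 (0.180). Of 8 tested other cysteine and glutathione genes, 0 were higher and 3 were lower. They were *Csad*, an enzyme of taurine synthesis (log2 fold change −0.48, SE 0.08, FDR = 0.00059), and *Gclc* (−0.32, SE 0.07, FDR = 0.0095) and *Gclm* (−0.58, SE 0.15, FDR = 0.0391), the subunits of the enzyme that starts glutathione synthesis. *Gclm* was not called without wild-type replicate 2 (0.0726) or without *Scd2*-m/-m replicate 1 (0.152), 2 (0.0605) or 3 (0.192). Of 12 genes of the other unfolded protein response arms, edgeR called 2 higher and 0 lower, while DESeq2 and limma-voom each called 2 higher and 1 lower. *Herpud1*, a gene of protein degradation at the endoplasmic reticulum named after its value was seen, had a log2 fold change of −0.35 (SE 0.11) and an edgeR FDR of 0.0525. The higher genes were *Edem1*, which helps to clear misfolded glycoproteins (183 ± 4.04 to 236 ± 7.51 CPM, log2 fold change 0.37, SE 0.06, FDR = 0.000499), and *Xbp1*, the transcription factor of the IRE1 arm (104 ± 2.23 to 128 ± 5.64 CPM, log2 fold change 0.31, SE 0.06, FDR = 0.0022).

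**Figure D4:**
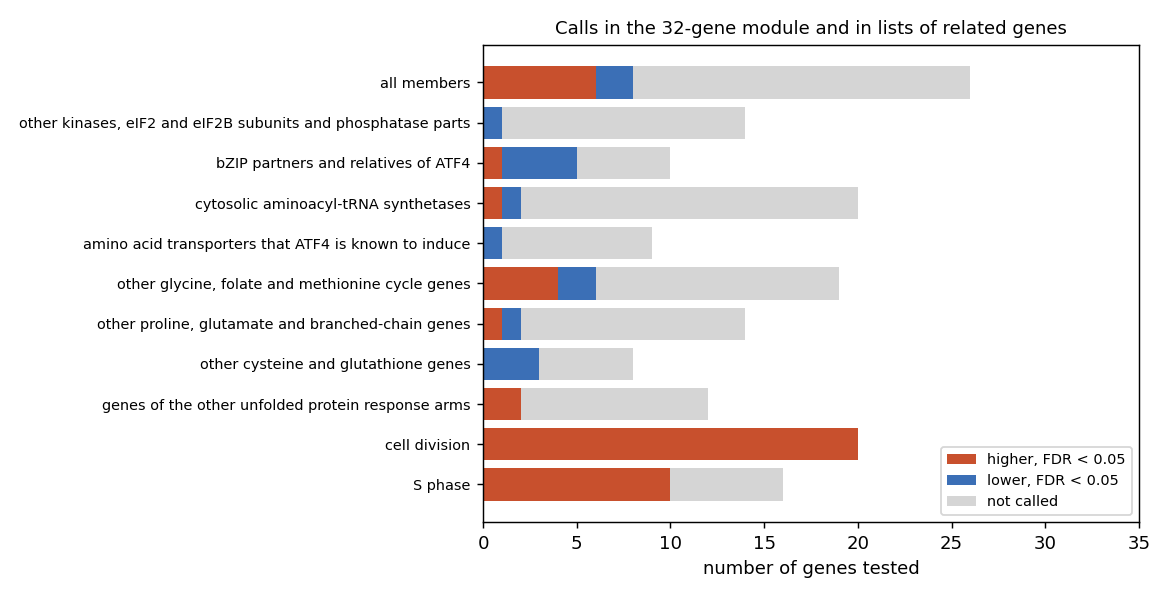
Number of tested genes called higher (orange), called lower (blue) and not called (grey) at an FDR of 0.05 among the module's members and in lists of related genes. The members have 6 higher and 2 lower of 26, the kinase and eIF2 list has 1 call of 14, and all 20 cell division genes are higher.

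Other cell states and cell types moved with the genotype and stand beside these values. Across all genes tested, 9.65% were called higher and 7.84% were called lower. All 20 tested cell division genes were higher in *Scd2*-m/-m BMDMs, with a summed level of 72.0 to 82.3 CPM in wild-type and 215 to 250 CPM in *Scd2*-m/-m libraries. Of 16 S phase genes, 10 were higher and 0 were lower (276 to 313 beside 353 to 367 CPM). Of 11 tested monocyte and progenitor markers, 7 were higher and 0 were lower (51.1 to 70.3 beside 149 to 210 CPM), with *Myb* the marker too low to be tested. Of 10 macrophage markers, 6 were lower and 1 was higher (38578 to 39395 beside 22354 to 22840 CPM). That sum includes *Lyz2*, the gene into which lysozyme M-Cre is inserted, at 22099 to 23228 beside 8661 to 9374 CPM. The neutrophil markers had 5 higher and 1 lower of 8 tested, with *S100a9* at 313% and *Ngp* at 335% of wild-type. Their sums overlapped (185 to 193 beside 164 to 197 CPM), and most of each sum is *Csf3r*, the marker called lower (157 to 168 beside 127 to 149 CPM). Of the B cell markers 2 of 4 tested were higher, of the dendritic cell markers 2 of 5 were higher, of the erythroid and megakaryocyte markers 1 of 4 was lower, of the fibroblast markers 0 of 3 passed (0 with an unadjusted p below 0.05, and 0 by DESeq2 and limma-voom), and no T, natural killer or mast cell marker was high enough to be tested. The part of dividing cells, progenitors and other cell types in the values of *Phgdh*, *Psat1*, *Aldh18a1*, *Asns* and the other members was not tested. With scaling factors computed without cell division and progenitor genes, the count of called members was the same, 6 higher and 2 lower. That setting changes the scaling of the libraries and not the mix of cells in them, so it cannot address the part of those cells.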

How the data were processed

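The authors selected poly(A) RNA, sequenced it on an Illumina NovaSeq, aligned the reads with STAR to the mouse primary assembly of Ensembl (GRCm38), and deposited counts per gene, whole numbers without normalization, for 6 libraries. The counting tool, the use of strand, the handling of reads that match several gene copies and what 1 count stands for are not stated in any source used here. Between 60.9% and 64.9% of counts from 1 to 20 were even, and halving the counts was therefore an alternative. The authors also deposited a table comparing the genotypes, for which the labels name edgeR and limma (log2 fold changes, limits, p-values, statistics and log2 CPM per library), which was not used. Count columns were matched to samples by the number in the sample description, and groups come from the sample titles.

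From 40757 entries, 276 that repeated a gene were removed. Coordinates and exon lengths were taken from GENCODE (GRCm38) for 99.7% of genes. The 14778 genes that passed filterByExpr were compared between genotypes with edgeR 4.0.16 (TMM factors of 0.979 to 1.02, glmQLFit with robust estimation, glmQLFTest) in R 4.3.3, with Benjamini-Hochberg adjustment over all of them (FDR, threshold 0.05). The SE of a log2 fold change comes from the same fit. CPM means carry the SD over 3 libraries. No batch or day is given, so none entered the fit. The script was tested on simulated data. Alternatives were other scaling factors, DESeq2 1.42.0, limma-voom (limma 3.58.1) with and without quality weights (statmod 1.5.0), other filters, halved counts, a replicate block and leaving out each library. Outside the members, the called genes of smallest p, at most 4 of each list of related genes, were named, plus *Scd2*, and cell type markers were named after their values were seen. The members and lists were chosen with earlier results of these data known. A gene that this rule names is not reported here. Samples of the study's other experiments were not analysed here.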

Additional observations from a re-analysis of the deposited data

How the results depend on the processing

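The counts of members called, 6 higher and 2 lower, were the same or within 1.5 times under all 17 alternatives except as given here. limma-voom with quality weights called 10 members higher, 5 lower and 4507 genes across the table, against 2585 genes by edgeR. Leaving out each library in turn gave 4 to 6 members higher, 1 to 3 lower and 1440 to 2567 genes called, with the fewest genes without *Scd2*-m/-m replicate 2 (1440) and without wild-type replicate 2 (1490), and 1 member lower without wild-type replicate 3 or *Scd2*-m/-m replicate 3. These fits have fewer samples. *Aldh18a1* and *Got1*, which lie near *Scd2*, were also left out of the count, a choice made after seeing the data. This left 4 members higher by recounting the same fit, so it cannot address the part of closeness to *Scd2*. The median log2 fold change of the members ranged from 0.037 to 0.18 when a library was left out. *Phgdh*, *Psat1*, *Aldh18a1*, *Glul* and *Gdf15* were called in all 17 alternatives, *Asns* in 16, *Sesn2* in 15 and *Got1* in 13. Uncalled members that changed sign were *Psph* (−0.035 to 0.21 over the libraries left out), *Ddit4* (−0.23 to 0.065 over the libraries left out, and 0.11 with quality weights) and *Mthfd1l* (−0.019 with quality weights), and the cause was not tested. No source used here says whether the replicate numbers pair the samples. The correlations of same-numbered libraries' deviations from their group means were 0.0530, −0.0196 and 0.0398. With 3 libraries per genotype these values cannot decide whether the samples were paired. With a replicate block, 6 members were higher, 2 were lower and 2974 genes were called, and the median of the members was 0.097. The 6 untested members and, among those tested, *Phgdh*, *Pycr1* and *Vldlr* rest on few counts, and *Phgdh* was also called with halved counts.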
